A study of Mus musculus with 20 samples.

Results

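The comparison described here set gene expression in oxalate mice against that in control mice when both groups had been given alkali therapy. Its members are the 10 libraries that the titles name as late oxalate (5) and late control (5), out of 20 mouse libraries in the series, and all 15430 genes with enough counts to test out of 25700 counted. The control mice on alkali and the oxalate mice on alkali differ in the labels only in oxalate; the alkali is named as bicarbonate supplementation and the disease as crystal nephropathy. The other 10 libraries, 5 control and 5 oxalate, carry the treatment label untreated and lack the word late in their titles. They are used below as the same contrast without alkali. Every group was profiled by stranded poly(A) RNA sequencing. The labels give no strain, sex, age, oxalate dose, duration, batch or meaning of the word late, and none says that each library is a separate animal, so the tests below weigh differences against a spread between libraries that could be technical. They do not name the tissue either, and kidney markers were read in all 10 libraries: Kap at 11427.5 to 36364.1 CPM, Umod at 2157.4 to 3072.8 CPM and Nphs1 at 24.0 to 50.8 CPM.

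Oxalate is an end product of metabolism that the kidney filters and secretes, and in excess it precipitates with calcium inside the tubule. Crystals injure and plug tubules, injured epithelium sheds its brush border and switches on adhesion molecules and chemokines, macrophages and lymphocytes enter, and fibroblasts lay down collagen. The proximal tubule, the segment that reclaims most filtered solutes and also makes ammonia and glucose, depends on fatty acid oxidation in its mitochondria. Bicarbonate given as alkali bears on the same organ through acid handling: proximal cells generate ammonia and bicarbonate, and intercalated cells of the collecting duct secrete acid or base.

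Total counts ran from 28234023 to 34849543 in the control libraries on alkali and from 25547840 to 39550689 in the oxalate libraries on alkali. The first principal component of these 10 libraries held 66.17% of the variance and kept the groups apart, with controls between -51.45 and -23.59 and oxalate libraries between -12.35 and 79.66. Oxalate library 2 lay nearest to the controls and oxalate library 33 farthest, and control library 4 was the control nearest to the oxalate group. The median SD of log2 CPM over a group's 5 libraries was 0.14 in controls and 0.263 in oxalate libraries. Fat and urothelial genes stood out in single libraries: Adipoq, the fat-cell hormone adiponectin, was at 35.4 CPM in oxalate library 33, 18 CPM in control library 4 and 2.9 CPM in control library 1, and at most 0.313 CPM in the other 7. Upk1b, a urothelial surface protein, was at 15.4 CPM in oxalate library 33 and at most 3.72 CPM elsewhere. Adrenal Cyp11b1 was at 0 in all 10 libraries. In whole tissue, fewer cells of a type and less RNA per cell cannot be told apart, and this applies to every result below.

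On alkali, 40.4% of the genes tested differed between oxalate and control. edgeR's quasi-likelihood test with Benjamini-Hochberg adjustment called 6237 of 15430 genes at an adjusted p under 0.05, of which 3604 (23.4%) were higher and 2633 (17.1%) lower in oxalate. The increases were the larger changes: their median was 0.935 on the log2 scale, against -0.398 for the decreases, and 1674 higher genes (10.8% of those tested) but 54 lower ones (0.35%) changed at least 2-fold. Among the increases 490 reached 4-fold and 47 reached 16-fold, and 1 decrease reached 4-fold. All 5 oxalate libraries lay above all 5 controls for 1667 genes (10.8%) and below them for 854 (5.53%). Higher genes made up 57.8% of the calls with TMM scaling and 85.6% with total counts, a scaling that moved the median of all genes up to 0.24, so small changes are relative to that shift. Without oxalate library 33 the lower calls numbered 1586 and without oxalate library 8 1540. Leaving out the 6 libraries of the series with Adipoq above 1 CPM, 3 of them in this comparison, gave 2263 higher and 956 lower.

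**Figure D1:**
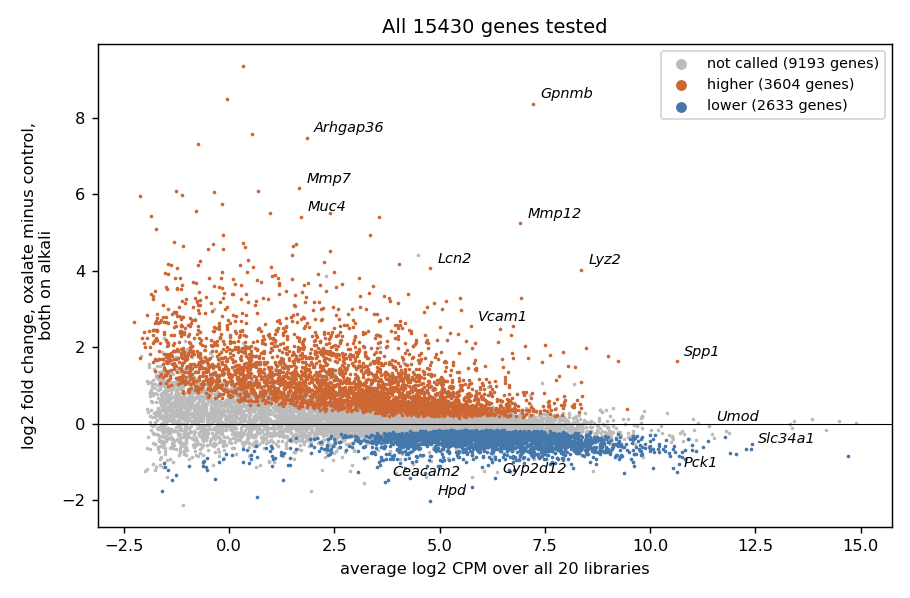
Average log2 CPM over the 20 libraries (x axis) against the log2 fold change of oxalate over control on alkali (y axis) for the 15430 genes tested; orange points were called higher, blue points lower, and grey points were not called. The upper side reaches beyond a log2 change of 8, while 1 called gene on the lower side is below -2.

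The largest increase belonged to Gpnmb, a glycoprotein of lysosomes that macrophages make in quantity after taking up debris (chromosome 6, 49036546 to 49070929 in GRCm38). Per-library values are given in CPM (counts scaled to the library's size) in the order control 1, 27, 37, 4 and 7, then oxalate 2, 30, 33, 5 and 8, and changes are log2 fold changes ± SE over 5 libraries against 5. Gpnmb was at 0.290, 0.278, 0.156, 0.366 and 0.372 CPM in controls and at 9.92, 40.6, 144.3, 110.5 and 175.3 CPM in oxalate. Oxalate library 2 was the lowest of its group. The change was 8.36 ± 0.91 (edgeR quasi-likelihood test, adjusted p = 1.75e-05), resting on 41 reads in all controls together and 17104 in the oxalate libraries. Among the 10 largest increases, 4 others belong to phagocytes. Lyz1, a lysozyme, rose by 5.41 ± 0.65, and Trem2, a lipid receptor of macrophages, by 4.94 ± 0.61. Clec4d, a C-type lectin receptor, rose by 4.70 ± 0.79, and Mmp12, the macrophage elastase, by 5.24 ± 0.73, from 1.93 to 73.4 CPM. The other 5 were Arhgap36 (7.47 ± 0.69, from 0.0354 to 6.91 CPM), Mmp7, a matrix protease of injured epithelium (6.16 ± 0.80), Gabrp, a GABA receptor subunit (5.51 ± 0.58), Muc4, a membrane mucin (5.41 ± 0.97), and Ear2, an eosinophil-type ribonuclease (4.64 ± 0.45). Controls of Arhgap36, Mmp7 and Clec4d held 5, 10 and 11 reads in all, so the sizes of those changes are loosely set. Mmp12, Mmp7 and Muc4 share exon sequence with annotated neighbours, and since the strand setting of the counting is not given in the sources used here, their counts are uncertain.

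The largest decreases were smaller, and those of Hpd and Pck1 concern metabolic enzymes. Hpd, which breaks down tyrosine, was at 41.4, 25.9, 32.1, 37.8 and 42.6 CPM in controls and at 17.7, 12.6, 3.50, 5.57 and 5.34 CPM in oxalate. Oxalate libraries 33, 5 and 8 were the lowest. The change was -2.01 ± 0.39 (edgeR, adjusted p = 0.00108). Pck1, the rate-setting enzyme of glucose production and a step in renal ammonia formation, was at 1846.7, 1573.7, 1289.7, 1147.9 and 1886.3 CPM in controls and at 1047.5, 672.2, 582.0, 480.5 and 430.9 CPM in oxalate, a change of -1.27 ± 0.26 (edgeR, adjusted p = 0.00147). Ceacam2, a cell adhesion protein, fell by 1.51 ± 0.32 and Etnppl, a phosphoethanolamine lyase, was at -1.46 ± 0.32. Azgp1, a zinc-binding secreted glycoprotein, fell by 1.21 ± 0.40, and without oxalate library 33, 5 or 8 it was no longer called. The other 5 were Cyp2d12 (-1.42 ± 0.38), Rdh16f2 (-1.12 ± 0.33), Selenbp2 (-1.10 ± 0.27), Susd3 (-1.10 ± 0.25) and Kcnt1, a sodium-activated potassium channel (-1.08 ± 0.25). Cyp2d12 and Rdh16f2 were not called without the libraries carrying Adipoq.

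**Figure D2:**
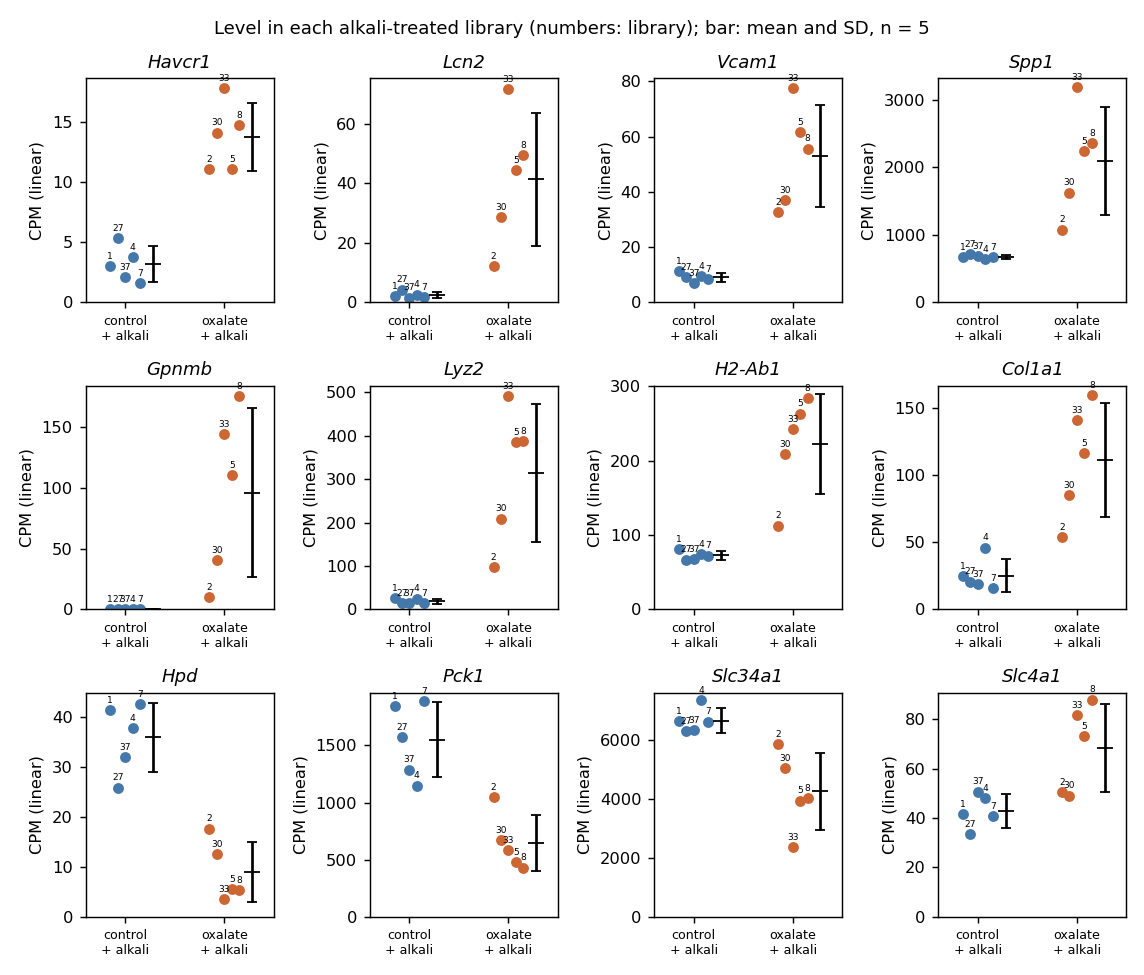
CPM (y axes, linear and starting at 0) of 12 genes in each control and oxalate library on alkali; points are libraries and the bar gives the mean and SD of 5. Oxalate lies wholly above control for Havcr1, Lcn2, Vcam1, Spp1, Gpnmb, Lyz2, H2-Ab1 and Col1a1 and wholly below it for Hpd, Pck1 and Slc34a1, and the groups overlap for Slc4a1.

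Genes of tubular injury rose in 21 of 26 members, with a median change of 1.36 against 0.0236 over all genes. Havcr1, the injury receptor KIM-1 that damaged proximal cells put on their surface, was at 3.01, 5.35, 2.07, 3.77 and 1.60 CPM in controls and at 11.1, 14.1, 17.8, 11.1 and 14.7 CPM in oxalate. Its groups did not overlap, library 2 was level with library 5, and the change was 2.12 ± 0.44 (edgeR, adjusted p = 0.00157). Lcn2, the iron-siderophore binder NGAL, was at 2.07, 4.27, 1.53, 2.56 and 1.86 CPM in controls and at 12.2, 28.5, 71.7, 44.4 and 49.5 CPM in oxalate. Its change was 4.07 ± 0.43 (edgeR, adjusted p = 8.85e-06), with library 33 highest and library 2 lowest. Vcam1, an adhesion molecule for leukocytes, was at 11.2, 9.23, 6.92, 9.49 and 8.26 CPM in controls and at 32.6, 37.1, 77.5, 61.6 and 55.6 CPM in oxalate, a rise of 2.55 ± 0.27. Spp1, osteopontin, a secreted phosphoprotein that coats calcium crystals, was already abundant in controls, at 675.1, 712.0, 681.6, 640.1 and 666.5 CPM. It reached 1077.9, 1627.2, 3193.6, 2240.8 and 2358.3 CPM in oxalate, a rise of 1.64 ± 0.22 (edgeR, adjusted p = 5.35e-05). Every oxalate library thus exceeded every control for these 4 genes. Cd44, the hyaluronan receptor, rose by 2.69 ± 0.32 and Timp1, a metalloprotease inhibitor, by 3.56 ± 0.44. Vcam1 and Spp1 overlap other annotated exons, so their counts are uncertain.

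Macrophages led the immune genes. Of 30 tested members of the macrophage and monocyte list, 27 rose and 0 fell, the median change was 2.44, and 25 had all oxalate libraries above all controls. Lyz2, the lysozyme of myeloid cells, was at 26.4, 15.3, 14.1, 24.9 and 15.1 CPM in controls and at 96.8, 208.8, 490.7, 385.0 and 387.2 CPM in oxalate (4.03 ± 0.42, edgeR, adjusted p = 8.41e-06). Its mean went from 19.2 to 313.7 CPM, and the least affected oxalate library still exceeded the highest control. The list did not move as one: Csf1r, the growth factor receptor of macrophages, changed by 0.26 and Mertk, an efferocytosis receptor, by 0.00, neither called, and both were picked out after their values were seen. Neutrophil genes were near the detection limit. The 12 members summed to 1.19 to 1.80 CPM in controls and 2.31 to 8.64 CPM in oxalate, the granule genes Mpo, Ngp and Camp were at 0 in all 10 libraries, and of 4 tested members Csf3r (2.49 ± 0.42) and Mmp9 (1.45 ± 0.37) rose. Dendritic and mast cell genes rose in 11 of 12 tested members, among them Ccl17, a chemokine for T cells (3.38 ± 0.40), Cd209a (1.89 ± 0.23) and Xcr1, the receptor that marks cross-presenting dendritic cells (2.15 ± 0.29). All tested members of that list are dendritic or shared, since the mast cell proteases Cpa3, Mcpt4, Tpsb2 and Cma1 did not reach the count filter.

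T and NK cell genes rose in 22 of 25 tested members and B and plasma cell genes in 9 of 15, none fell, and the medians were 1.93 and 1.33. Cd4, the helper T cell coreceptor, was at 0.545, 0.625, 0.720, 0.879 and 0.558 CPM in controls and at 0.999, 5.50, 5.79, 4.89 and 5.89 CPM in oxalate, a rise of 2.79 ± 0.38. Oxalate library 2 sat just above the controls and the other 4 oxalate libraries lay close together. Cd3e, a chain of the T cell receptor complex, rose by 2.43 ± 0.34, Cd2, an adhesion receptor, by 2.42 ± 0.36, and Foxp3, the regulatory T cell factor, by 4.15 ± 0.61 from 0.0936 CPM. Ctla4 was at 0 in all 5 controls, and the list's median stayed 1.93 with that gene at the bound its counts allow. Foxp3 and Cd3e overlap neighbouring exons. Immunoglobulin transcripts varied between oxalate libraries. Igkc, the kappa light chain, was at 25.8, 11.2, 7.79, 10.8 and 9.86 CPM in controls and at 37.8, 111.2, 273.3, 42.4 and 49.7 CPM in oxalate (2.98 ± 0.53). Igha, the IgA heavy chain, rose by 1.74 ± 0.33 and did so most in libraries 2 and 5, at 57.5 and 52.3 CPM, where Igkc was low within the group. Sdc1, a plasma cell and epithelial proteoglycan, rose by 1.22 ± 0.21, and Cd79a, the B cell receptor chain, was not called (0.91, edgeR, adjusted p = 0.151) and was high in library 33 alone, at 1.54 CPM.

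Signals that recruit and arm these cells rose too. Of 27 chemokines, 19 rose (median 1.51), as did 21 of 31 cytokines and their receptors (1.31; 1 fell, and 4 without oxalate library 2) and 27 of 33 innate sensors and inflammasome genes (1.26). Ccl2, which draws monocytes, rose by 2.51 ± 0.55, from 0.409 to 1.05 CPM in controls to 2.62 to 5.69 CPM in oxalate. Ccl9 rose by 3.29 ± 0.43, Ccl6 by 2.57 ± 0.37 and Ccl20, which attracts cells bearing Ccr6, by 4.57 ± 0.65 from a control mean of 0.0422 CPM. Osmr, the oncostatin M receptor, rose by 2.12 ± 0.25. Il18r1 and Il1rl1, receptors of the interleukin 1 family, rose by 2.73 ± 0.34 and 2.41 ± 0.33, and Tnfsf13b, the B cell survival factor BAFF, by 2.56 ± 0.35. Among sensors Casp4, the caspase of intracellular lipopolysaccharide, rose by 2.49 ± 0.33, the RNA and DNA receptors Tlr8 and Tlr9 by 3.28 ± 0.51 and 2.10 ± 0.34, and Nfkbie, an NF-kappa B inhibitor, by 1.32 ± 0.20. Socs3, the feedback inhibitor of cytokine signalling, was at 1.92, 2.64, 1.5, 2.31 and 1.86 CPM in controls and at 5.96, 13.5, 18.8, 14.9 and 21.2 CPM in oxalate (2.86 ± 0.30, edgeR, adjusted p = 8.52e-06). Of 25 complement genes 20 rose and 2 fell. C3, the central component, was at 18.4, 17.2, 11.3, 37.5 and 15.9 CPM in controls and at 46.3, 85.0, 193.1, 121.1 and 143.1 CPM in oxalate, with control library 4 the highest control. C7, of the membrane attack complex, rose by 2.16 ± 0.29, C1qa and C1qb, made by macrophages, by 2.35 ± 0.33 and 2.12 ± 0.29, and the C3a receptor C3ar1 by 3.0 ± 0.43.

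Antigen presentation on MHC class II rose in 11 of 11 tested members, with a median of 1.73 and 9 members without overlap. Class II molecules carry peptides to helper T cells, and their genes share a promoter module whose Y box binds the factor NF-Y. H2-Ab1, the beta chain of I-A, was at 81.6, 67.0, 67.6, 74.5 and 72.5 CPM in controls and at 112.7, 208.4, 242.4, 263.2 and 284.3 CPM in oxalate (1.61 ± 0.19, edgeR, adjusted p = 2.34e-05). H2-Aa, its partner chain, was at 94.6, 81.4, 78.1, 98.3 and 76.0 CPM in controls and at 144.1, 228.2, 447.5, 400.9 and 356.3 CPM in oxalate (1.88 ± 0.25). Both chains rose in every oxalate library beyond every control, least in library 2. H2-Eb1, the I-E beta chain, rose by 1.79 ± 0.22 and H2-DMa, of the peptide exchanger H2-M, by 1.63 ± 0.20. Promoters of 4 class II genes are shown for the letters they share. Of the 8 members with a promoter in the RefSeq table (GRCm38.p6, 250 bases before the start), 7 (87.5%) held the Y box letters TGATTGG on either strand, against 7.65% of 27025 promoters. H2-DMa, which rose by 1.63, was the member without the Y box letters. In the 4 below, printed 5′ to 3′ on the gene's strand with the Y box in capitals, it starts at -50 (H2-Aa, chr17:34287824-34288073, minus strand), -61 (H2-Eb1, chr17:34305617-34305866, plus), -92 (H2-DMb2, chr17:34144999-34145248, plus) and -45 (H2-Oa, chr17:34092129-34092378, plus). H2-DMb2 and H2-Oa, the beta and alpha chains of H2-M and H2-O, rose by 2.06 and 1.73 and were picked for their motif. H2-Ab1, Cd74 and Ciita were not matched.
H2-Aa: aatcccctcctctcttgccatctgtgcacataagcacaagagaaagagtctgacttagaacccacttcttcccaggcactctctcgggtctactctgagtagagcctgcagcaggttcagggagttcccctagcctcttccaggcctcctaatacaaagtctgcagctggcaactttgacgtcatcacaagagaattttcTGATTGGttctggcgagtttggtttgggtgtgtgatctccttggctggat
H2-Eb1: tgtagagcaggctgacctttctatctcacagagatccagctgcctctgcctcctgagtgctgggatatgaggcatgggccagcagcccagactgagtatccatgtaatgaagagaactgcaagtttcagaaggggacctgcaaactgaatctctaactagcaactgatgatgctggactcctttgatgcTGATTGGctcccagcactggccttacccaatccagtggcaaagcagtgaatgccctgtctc
H2-DMb2: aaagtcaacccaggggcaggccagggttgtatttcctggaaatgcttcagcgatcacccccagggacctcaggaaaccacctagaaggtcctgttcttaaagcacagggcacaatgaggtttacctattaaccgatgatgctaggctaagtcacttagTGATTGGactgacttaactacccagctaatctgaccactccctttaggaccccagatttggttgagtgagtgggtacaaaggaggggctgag
H2-Oa: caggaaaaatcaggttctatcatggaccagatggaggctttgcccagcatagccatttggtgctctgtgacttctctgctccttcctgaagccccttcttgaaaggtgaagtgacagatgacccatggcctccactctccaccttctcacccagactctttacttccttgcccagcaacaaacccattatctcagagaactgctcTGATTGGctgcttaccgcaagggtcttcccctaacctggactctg

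MHC class I and interferon genes changed less. Of 22 class I and antigen processing genes 15 rose and 2 fell, with a median of 0.48, H2-K1 rising by 0.61 ± 0.13 and H2-Q7 by 0.83 ± 0.15. Of 37 interferon response genes 26 rose and 0 fell (median 0.70), yet only 2 separated the groups completely. Control library 4 was the highest control for Mx1, an antiviral GTPase, at 1.5 CPM against 0.595 to 1.04 CPM, and oxalate library 2 was the lowest oxalate library at 1.41 CPM. Mx1 rose by 1.91 ± 0.31, Oas2, a sensor of double-stranded RNA, by 1.58 ± 0.31, Ddx58, the RNA helicase RIG-I, by 0.72 ± 0.14 and Irf8, a myeloid transcription factor, by 1.12 ± 0.20. Interferons act through an enhancer, the ISRE, whose core was searched as GAAA, any 2 bases and GAAA on both strands. It lay in 16 of 30 promoters of the list (53.3%) against 3.04% of all, in 4.4% of promoters of genes called higher, 2.25% of those called lower and 2.28% of those not called. Within the list, 11 of the 16 genes with the core rose and 5 were not called, and 11 of the 14 without it rose and 3 were not called. Oas1g (chr5:120887614-120887863, minus strand), Oas3 (chr5:120777660-120777909, minus) and Rsad2 (chr12:26456453-26456702, minus), which rose by 1.59, 1.66 and 0.69, show the match in capitals; Oas1g holds 2 overlapping matches and that of Rsad2 is on the other strand. They and Igtp (chr11:58199306-58199555, plus), which holds the core and was not called at -0.45, were picked after their values were seen.
Oas1g: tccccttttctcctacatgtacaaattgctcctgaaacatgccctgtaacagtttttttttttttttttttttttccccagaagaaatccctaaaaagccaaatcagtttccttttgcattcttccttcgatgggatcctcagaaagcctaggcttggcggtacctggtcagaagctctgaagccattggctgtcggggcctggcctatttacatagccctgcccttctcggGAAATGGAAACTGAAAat
Oas3: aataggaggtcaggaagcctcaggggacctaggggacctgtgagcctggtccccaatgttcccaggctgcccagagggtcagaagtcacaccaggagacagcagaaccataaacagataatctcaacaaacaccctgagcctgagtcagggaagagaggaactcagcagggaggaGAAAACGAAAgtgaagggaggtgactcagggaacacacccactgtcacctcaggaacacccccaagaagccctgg
Rsad2: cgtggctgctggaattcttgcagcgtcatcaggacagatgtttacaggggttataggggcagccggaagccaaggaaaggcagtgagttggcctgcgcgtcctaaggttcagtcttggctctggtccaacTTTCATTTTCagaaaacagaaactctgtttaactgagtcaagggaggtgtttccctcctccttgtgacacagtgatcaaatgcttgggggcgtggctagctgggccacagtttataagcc
Igtp: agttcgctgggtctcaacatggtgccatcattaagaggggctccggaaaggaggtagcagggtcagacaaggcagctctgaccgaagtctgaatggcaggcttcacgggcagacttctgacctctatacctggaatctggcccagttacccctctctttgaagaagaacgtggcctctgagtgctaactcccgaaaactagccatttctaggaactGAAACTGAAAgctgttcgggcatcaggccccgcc
Kappa B letters (GGGA, any 2 bases and TTCC) lay in 3 of 19 chemokine promoters (15.8%) against 1.17% of all, and the ISRE core also in 3 of these 19 (15.8%) against 3.04%. AP-1 letters (TGANTCA) lay in 7 of 30 interferon response promoters (23.3%) and 3 of 20 tubular injury promoters (15%) against 6.87% of all. HNF1 letters (GTTAAT, any 1 base and ATT) lay in 1 of 30 promoters of proximal tubule enzymes and 0 of 34 of transporters, against 0.411% of all. A match is a string of letters, not a shown binding site.

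**Figure D3:**
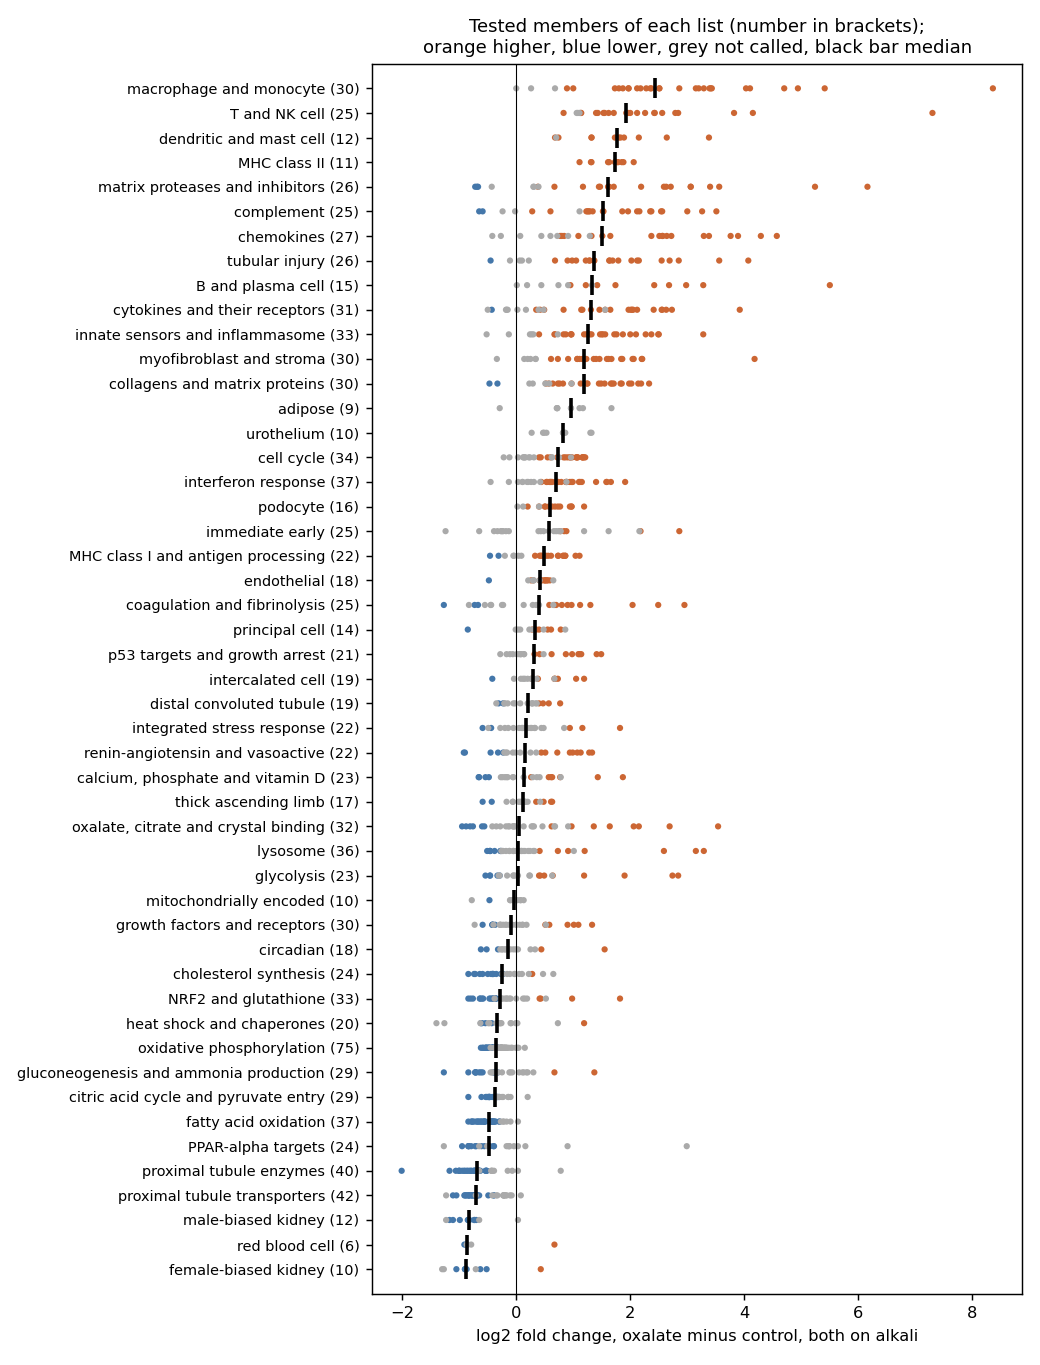
Log2 fold change of oxalate over control on alkali (x axis) of each tested member of the lists with at least 5 tested genes; points are genes (orange called higher, blue lower, grey not called) and the bar is the list's median, with Ctla4, at 0 in all controls, drawn at its fitted value. Immune and matrix lists lie to the right of 0, with macrophage and monocyte genes at a median of 2.44, and proximal tubule transporters and enzymes to the left, at -0.70 and -0.69.

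Matrix genes rose in both their structural and their remodelling members. Of 30 collagens and matrix proteins 23 rose and 2 fell (median 1.19), of 30 myofibroblast and stroma genes 24 rose (1.19), and of 26 matrix proteases and inhibitors 19 rose and 3 fell (1.62). Col1a1, the main chain of fibrillar collagen I, was at 24.7, 20.8, 18.6, 45.9 and 15.7 CPM in controls and at 53.5, 84.7, 140.8, 116.2 and 159.0 CPM in oxalate. Control library 4 came near the lowest oxalate library, and the change was 2.14 ± 0.37 (edgeR, adjusted p = 0.000407). Fn1, fibronectin, was at 31.0, 21.1, 26.4, 38.2 and 22.6 CPM in controls and at 65.0, 112.8, 195.9, 144.8 and 179.7 CPM in oxalate (2.33 ± 0.32). Mgp, matrix Gla protein, an inhibitor of calcification, was at 66.3, 70.9, 51.4, 58.2 and 55.0 CPM in controls and at 114.9, 195.8, 337.7, 259.8 and 350.7 CPM in oxalate (2.06 ± 0.27). Both rose in every oxalate library. Thbs2, a thrombospondin, rose by 1.83 ± 0.24, Sparc, a collagen-binding protein, by 1.25 ± 0.22, Tgfbi by 1.62 ± 0.21, Fbln1 by 2.21 ± 0.32 and Ltbp2, of the elastic fibre, by 4.18 ± 0.53. The gelatinase Mmp2 rose by 2.63 ± 0.32 and its activator Mmp14 rose from 8.88 to 40.5 CPM. The 2 matrix genes that fell were Col4a3 (-0.47 ± 0.13) and Col4a4 (-0.33 ± 0.11), collagen IV chains of the mature basement membrane of glomerulus and tubule, named because they were the exceptions. Without oxalate library 33 or 8, 1 of them was called.

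Proximal tubule genes fell. Of 42 transporters 27 fell and 0 rose (median -0.70), and of 40 enzymes 31 fell and 0 rose (-0.69), against 17.1% of all genes called lower. Aqp1, the water channel of the brush border, was at 1175.2, 964.7, 887.8, 1088.8 and 962.2 CPM in controls and at 873.3, 510.2, 488.6, 513.3 and 547.6 CPM in oxalate (-0.79 ± 0.17, edgeR, adjusted p = 0.00198). Library 2 stood next to the controls and the other 4 oxalate libraries lay together. Slc34a1, the main phosphate carrier, averaged 6657.3 ± 421.6 CPM (SD, n = 5) in controls and 4255.3 ± 1316.6 CPM in oxalate without overlap, but the change (-0.65 ± 0.23, edgeR, adjusted p = 0.0294) was lost without oxalate library 33, 5 or 8 or control library 1, 4 or 7. Lrp2, megalin, the receptor that retrieves filtered protein, was at 3018.8, 2913.3, 2560.5, 2845.2 and 2895.5 CPM in controls and at 2729.0, 2073.7, 1107.2, 1340.9 and 1493.2 CPM in oxalate (-0.70 ± 0.24). Megalin's spread in oxalate was wide, with library 2 inside the control range, and the call was lost without oxalate library 33, 5 or 8 or control library 1. Slc22a19, an organic anion carrier, fell by 0.87 ± 0.20, Slc6a18, a neutral amino acid carrier, by 0.83 ± 0.20 and Slc16a9 by 0.78 ± 0.20. Slc5a2, the glucose carrier SGLT2, was at -0.11 and not called. Among enzymes Bhmt2, of methionine metabolism, fell by 1.0 ± 0.21, Gk, glycerol kinase, by 0.92 ± 0.23 and Ugt2b38, a glucuronosyltransferase, by 0.99 ± 0.26. Kap, an androgen-driven proximal gene and among the most abundant transcripts, was at 31468.8, 33973.4, 36364.1, 27584.8 and 33706.8 CPM in controls and at 27391.5, 21757.0, 13286.1, 16395.6 and 11427.5 CPM in oxalate (-0.85 ± 0.24). Of the sex-biased kidney genes, 9 of 12 male-biased and 6 of 10 female-biased ones fell. Without oxalate library 33, 19 of the proximal tubule enzymes fell, and without the libraries carrying Adipoq 8 enzymes and 5 of the proximal tubule transporters did, at medians of -0.63 and -0.57.

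The thick ascending limb and distal convoluted tubule lists were called at shares near or below those of all genes, of which 23.4% rose and 17.1% fell. Umod, uromodulin of the thick ascending limb, was at 3072.8, 3033.5, 2713.2, 2970.1 and 2381.5 CPM in controls and at 3038.8, 2157.4, 2648.5, 2823.8 and 2879.5 CPM in oxalate, overlapping and not called (-0.06 ± 0.14). Of 17 thick ascending limb genes 4 rose and 2 fell (median 0.12), with the paracellular cation pore genes Cldn16 (0.61 ± 0.13) and Cldn19 (0.63 ± 0.15) up and Cldn10 down by 0.43 ± 0.11. Egf, made in the distal nephron, fell by 0.59 ± 0.22, a call lost without any of oxalate libraries 30, 33, 5 and 8 or control libraries 1, 27, 37 and 4, and Kl, klotho, was at -0.20 ± 0.13 and not called. Among 19 distal convoluted tubule genes 4 rose and 2 fell (0.20): Atp2b4, a calcium pump, by 0.57 ± 0.10, Trpv5, the apical calcium channel, by 0.77 ± 0.14, Stk39, a kinase of the sodium chloride cotransporter, by 0.40 ± 0.09 and Wnk4, which acts above it, by 0.47 ± 0.15. Wnk4 was not called without oxalate library 8. The 2 falls in each of these 2 lists were reduced to 1 or 0 by leaving out any of oxalate libraries 30, 33, 5 and 8 or control libraries 1, 27, 37 and 4, and in the distal convoluted tubule list also by leaving out control library 7 or any of 5 untreated libraries.

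Called collecting duct genes were mostly higher, to be read beside the 23.4% of all genes that rose and the 17.1% that fell. Of 14 principal cell genes 6 rose and 1 fell (median 0.33), and of 19 intercalated cell genes 7 rose and 1 fell (0.30). Scnn1b, a subunit of the epithelial sodium channel, was at 59.0, 62.8, 63.1, 53.1 and 59.3 CPM in controls and at 61.6, 91.3, 95.4, 115.4 and 146.5 CPM in oxalate (0.78 ± 0.15). Hsd11b2, which protects the mineralocorticoid receptor from glucocorticoids, was at 177.3, 190.9, 181.8, 152.8 and 188.4 CPM in controls and at 192.2, 219.4, 244.0, 297.2 and 354.0 CPM in oxalate (0.55 ± 0.13). Library 2 lay within the control range for Scnn1b and just above it for Hsd11b2, and library 8 was the highest for both. Gata3 rose by 0.61 ± 0.14 and Nr3c2, the mineralocorticoid receptor, by 0.28 ± 0.08, while Aqp2, the vasopressin-regulated water channel, was at 0.48 and not called. In intercalated cells Slc4a1, the basolateral chloride-bicarbonate exchanger AE1 of acid-secreting cells, was at 41.5, 33.4, 50.7, 48.2 and 40.9 CPM in controls and at 50.4, 49.1, 81.6, 73.3 and 88.0 CPM in oxalate (0.67 ± 0.16, edgeR, adjusted p = 0.00383). Oxalate libraries 2 and 30 overlapped the controls. Aqp6, a vesicle anion channel, was at 33.6, 37.1, 44.0, 38.8 and 38.8 CPM in controls and at 45.2, 59.3, 103.5, 79.5 and 111.4 CPM in oxalate (1.05 ± 0.18). Dmrt2 rose by 1.19 ± 0.20 and Kit by 0.68 ± 0.15, and Slc26a4, pendrin of base-secreting cells, was at -0.04 and not called. Slc4a1 is also the band 3 protein of red cells, whose globins Hbb-bs and Hbb-bt were at -0.88 ± 0.33 and -0.91 ± 0.36, calls lost without any of oxalate libraries 2, 30, 5 and 8 or control libraries 27, 37, 4 and 7. Without the libraries carrying Adipoq, 3 intercalated cell genes and 2 principal cell genes were called higher, and Slc4a1 was not called. In that setting 2263 of all 15595 genes tested were called higher, and both counts lie near that share.

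Glomerular and vascular genes were modestly higher, to be read beside the 23.4% of all genes that rose. Over all genes 10.8% had every oxalate library above every control. Of 16 podocyte genes 13 rose and 0 fell (median 0.60), 10 of them without overlap. Synpo, synaptopodin of the foot process, was at 51.5, 46.5, 41.8, 53.5 and 51.1 CPM in controls and at 59.2, 82.6, 84.4, 93.7 and 97.7 CPM in oxalate (0.77 ± 0.12). Ptpro rose by 0.73 ± 0.12, Nphs1, nephrin, by 0.63 ± 0.11 and Nes, nestin, by 0.97 ± 0.18. Library 2 was the lowest oxalate library for Synpo and Nphs1. Of 18 endothelial genes 12 rose and 1 fell (0.42), with Pecam1 up by 0.51 ± 0.11, Erg by 0.55 ± 0.12, Emcn by 0.54 ± 0.12 and Cdh5 by 0.59 ± 0.13. Without oxalate library 8, 6 of the endothelial genes rose, as did 2928 of all 15544 genes tested. With total-count scaling 15 podocyte and 16 endothelial genes rose, as did 5645 of all 15430 genes. That scaling moved the median of all genes up to 0.24.

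**Figure D4:**
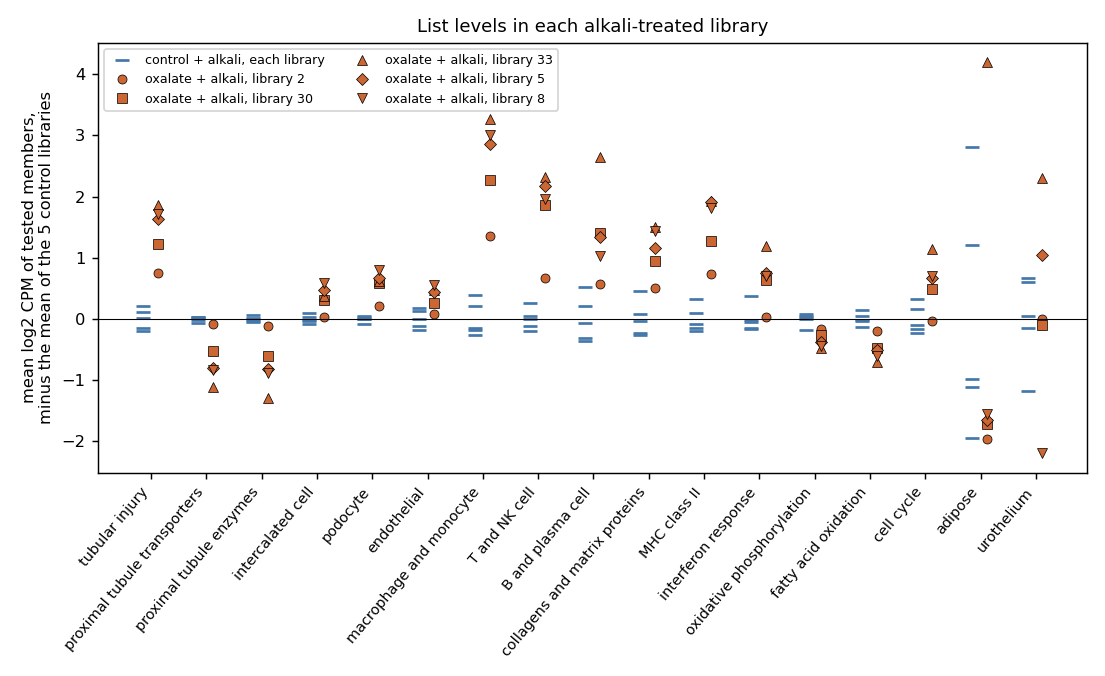
Mean log2 CPM of each list's members in each library on alkali minus the mean of the 5 controls (y axis, log2) for 17 lists (x axis); each oxalate library has its own marker. Over the 15 lists other than adipose and urothelium, oxalate library 2 was nearest to the controls in 15 and library 33 farthest in 12, library 8 in the other 3.

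Genes of mitochondrial metabolism were lower by small amounts, to be read beside the 17.1% of all genes that fell. Of 75 nuclear genes of oxidative phosphorylation 39 fell and 0 rose (median -0.35), of 29 genes of the citric acid cycle and pyruvate entry 21 fell (-0.37), and of 37 genes of fatty acid oxidation 31 fell (-0.47). Decr1, which handles unsaturated fatty acids, was at 260.7, 310.0, 275.5, 232.4 and 300.4 CPM in controls and at 129.9, 178.9, 161.8, 183.3 and 154.6 CPM in oxalate (-0.77 ± 0.14, edgeR, adjusted p = 0.000585). Here oxalate library 2 was the lowest library, unlike its place in most lists. Acad12 fell by 0.77 ± 0.16, Echs1 by 0.63 ± 0.14 and Eci1 by 0.54 ± 0.12. Ndufs5 of complex I was at 20.3, 21.4, 19.7, 18.8 and 23.4 CPM in controls and at 15.3, 12.4, 15.5, 15.2 and 10.3 CPM in oxalate (-0.59 ± 0.12). Its groups did not overlap. Sdhd and Sdhc, the membrane anchors of complex II, fell by 0.42 ± 0.11 and 0.49 ± 0.13, Mpc1, the mitochondrial pyruvate carrier, by 0.61 ± 0.15 and Pdha1, of pyruvate dehydrogenase, by 0.47 ± 0.12. Of 10 tested mitochondrially encoded genes 1 fell, mt-Nd6, which was not called without oxalate library 5 or 8 or control library 1, 27 or 37, and the median was -0.04. The genes mt-Co2, mt-Atp6 and mt-Atp8, 3 of the 13 on that list, did not reach the count filter. Of 24 PPAR-alpha targets, genes of the fasting and fat-burning programme, 12 fell, Ppara itself by 0.95 ± 0.26 and Ehhadh by 0.79 ± 0.23, while Ppargc1a was at -0.12 and not called. Control library 27 had the highest mean log2 CPM of the PPAR-alpha list among controls, 6.12 against 5.53 to 5.77, and without it 9 fell. The counts depend on scaling and on single libraries: with total counts 15 oxidative phosphorylation genes and 23 fatty acid oxidation genes fell, at medians of -0.15 and -0.27, and the oxidative phosphorylation count was 18 without oxalate library 8, 21 without oxalate library 33, 25 without control library 37 and 61 without untreated oxalate library 40. Without the libraries carrying Adipoq, 18 oxidative phosphorylation, 9 citric acid cycle and pyruvate entry and 16 fatty acid oxidation genes fell. Over all genes tested the lower calls numbered 953 of 15430 with total counts and 956 of 15595 without the libraries carrying Adipoq. They numbered 1540 of 15544 without oxalate library 8 and 1586 of 15484 without oxalate library 33. Without control library 37 they numbered 1997 of 15583 and without untreated oxalate library 40, 3433 of 15489.

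Of 29 genes of glucose and ammonia production 13 fell, 2 rose and 14 were not called (median -0.36). Besides Pck1, Slc25a13, an aspartate-glutamate carrier, fell by 0.62 ± 0.17. Slc38a1, a glutamine carrier, was at 3.12, 2.92, 3.04, 3.48 and 2.98 CPM in controls and at 5.44, 7.19, 11.6, 8.85 and 7.06 CPM in oxalate (1.37 ± 0.21), whereas Slc38a3, the glutamine carrier that acid loads induce, was at -0.45 and not called. Of 23 glycolysis genes 8 rose and 5 fell (0.03): Hk3, the hexokinase of myeloid cells, rose by 2.84 ± 0.51, Eno2 by 1.90 ± 0.39 and Pfkp by 0.64 ± 0.15, and Pgam1 fell by 0.46 ± 0.09. Over all genes 23.4% rose and 17.1% fell, and the glycolysis falls lie near that share. The glycolysis rises numbered 4 without oxalate library 33 and 5 without control library 1, 27 or 7, and the falls 2 without oxalate library 8 and 3 without oxalate library 33 or control library 27. In cholesterol synthesis 13 of 24 genes fell and 1 rose (-0.25), among them Cyp51 by 0.72 ± 0.19, and 6 fell without oxalate library 33 or 8, 7 without control library 4 or oxalate library 5 and 8 without control library 1 or 7 or oxalate library 30.

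The lists for calcium and phosphate and for oxalate and crystals were called at shares near those of all genes, of which 23.4% rose and 17.1% fell. Trpv6, the second apical calcium channel, rose by 1.43 ± 0.23 and Slc34a2, a phosphate carrier of other epithelia, by 1.87 ± 0.31, from 3.66 to 13.4 CPM. In the calcium, phosphate and vitamin D list 7 of 23 genes rose and 4 fell (median 0.13), and the falls (Slc34a1, Pdzk1, Slc9a3r1 and Pth1r) numbered 2 without control library 1 or 4 and 1 without any of oxalate libraries 33, 5 and 8 or control library 7. In the list of oxalate, citrate and crystal binding 8 of 32 genes rose and 6 fell (0.05). The 8 that rose were Cd44, Spp1 and Mgp above, Itih4 (3.54 ± 0.54, from 0.131 CPM), the thrombin receptor Thbd, and the annexins Anxa1 (2.15 ± 0.39), Anxa2 (1.36 ± 0.22) and Anxa5 (0.62 ± 0.16). The 6 that fell were Grhpr, Hoga1, Hao2, Slc13a2, Slc13a3 and Itih2. Grhpr, which reduces glyoxylate and so keeps it from becoming oxalate, was at 219.7, 215.0, 220.7, 193.2 and 228.1 CPM in controls and at 191.6, 126.5, 77.2, 120.4 and 99.7 CPM in oxalate (-0.81 ± 0.22), library 2 just under the lowest control. Hoga1, of the same pathway, fell by 0.56 ± 0.18 and the citrate carrier Slc13a2 by 0.76 ± 0.23. Hao2, a hydroxyacid oxidase, fell by 0.95 ± 0.25, the dicarboxylate carrier Slc13a3 by 0.88 ± 0.23 and Itih2, an inter-alpha-trypsin inhibitor heavy chain like Itih4, by 0.60 ± 0.18. Slc26a6, an oxalate exchanger, was at -0.18 and not called. The annexins, Grhpr, Hoga1, Hao2, Slc13a2, Slc13a3, Itih2 and Slc26a6 were picked for their role after their values were seen.

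Stress and growth programmes moved in parts, to be read beside the 23.4% of all genes that rose and the 17.1% that fell. The immediate early rises and both integrated stress response counts lie near or below those shares. Of 34 cell cycle genes 20 rose and 0 fell (median 0.74). Mki67, the proliferation antigen, was at 7.15, 11.7, 5.95, 6.34 and 5.21 CPM in controls and at 6.92, 15, 25.6, 12.3 and 15.6 CPM in oxalate (1.05 ± 0.31, edgeR, adjusted p = 0.0137), and library 33 was the highest. E2f1 rose by 0.55 ± 0.11, Birc5 by 1.06 ± 0.24, Tpx2, of the spindle, by 1.21 ± 0.30 and Foxm1 by 0.95 ± 0.25. Without oxalate library 33, 7 cell cycle genes rose and Mki67 was not called. The count was 10, 13 and 11 without control library 1, 37 or 7 and 13 without oxalate library 5, and without the libraries carrying Adipoq it was 2. Of 21 p53 targets and growth arrest genes 10 rose (0.32), among them Eda2r by 1.49 ± 0.31, Plk2 by 0.87 ± 0.20 and Gadd45b by 1.41 ± 0.33. Of 25 immediate early genes 5 rose (0.57), Socs3, Klf4 (0.84 ± 0.18), Ier5 (0.88 ± 0.21), Klf6 (0.77 ± 0.24) and Egr3, whereas Fos was at -0.39 ± 0.63 and Egr1 at -1.24 ± 0.95, neither called. Control library 27 was the highest control for this list, at a mean log2 CPM of 3.32 against 2.0 to 2.57 in the other controls. Of 33 NRF2 and glutathione genes 16 fell and 4 rose (-0.28), with the peroxidase Gpx6 down by 0.84 ± 0.17, Gstp1 by 0.76 ± 0.18, Prdx6 by 0.47 ± 0.11 and Txn1 by 0.42 ± 0.10, and the rises numbered 2 without control library 4 or 7 or oxalate library 33, 5 or 8. The paired mitochondrial chaperones Hspe1 and Hspd1 fell by 0.62 ± 0.16 and 0.60 ± 0.17 and Hspb8 rose by 1.19 ± 0.22, in a heat shock and chaperones list of 1 rise and 5 falls in 20. Those falls numbered 2 without control library 27 or oxalate library 33 or 8, 3 without oxalate library 5 and 8 without untreated oxalate library 40, and the rises 2 without oxalate library 2. In the integrated stress response 3 of 22 genes rose and 2 fell (0.17), Slc7a11, the cystine carrier, by 1.82 ± 0.48. Here 5 rose without oxalate library 2 and 1 fell without control library 1, 37 or 7 or oxalate library 33, 5 or 8. Of 36 lysosome genes 7 rose and 7 fell (0.04), the rises led by Ctss, a cathepsin of antigen-presenting cells (3.29 ± 0.43, from 11.9 to 116.4 CPM), and Cd68, a macrophage lysosomal protein (3.15 ± 0.49). Both lysosome counts lie near the shares of all genes, and the falls numbered 4 without control library 1 or 37 or oxalate library 33 or 5 and 10 without oxalate library 2.

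Of 25 coagulation and fibrinolysis genes 11 rose and 3 fell (median 0.40), among them Pros1, protein S (1.12 ± 0.17), Thbd, thrombomodulin (0.97 ± 0.15), and Plat, the tissue plasminogen activator (0.67 ± 0.13). The falls numbered 1 without oxalate library 33, 7 without oxalate library 2 and 5 without untreated oxalate library 32 or 40. Of 22 renin-angiotensin and vasoactive genes 9 rose and 5 fell (0.16): Edn1, endothelin, rose by 1.33 ± 0.24 and Ptger4 by 1.28 ± 0.24, and Ren1, renin, was at 0.25 and not called. Of 30 growth factors and receptors 6 rose and 6 fell (-0.10), Fgf2 up by 1.33 ± 0.29 and Igf1r down by 0.42 ± 0.11. Both growth factor counts and the vasoactive falls lie near the shares of all genes, of which 23.4% rose and 17.1% fell. The falls in the vasoactive list numbered 1 without oxalate library 8, 2 without oxalate library 33 and 3 without oxalate library 5 or control library 4. Those in the growth factor list numbered 2 without oxalate library 8 and 3 without oxalate library 30 or 5 or control library 1. Among 18 circadian genes 2 rose and 3 fell (-0.14), near or below the shares of all genes. The circadian falls numbered 1 without any of control libraries 1, 37, 4 and 7 and oxalate libraries 33, 5 and 8 and 5 without oxalate library 2, and the rises numbered 1 in 14 of the 20 leave-one-out analyses.

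Markers of other tissues moved in single libraries. The adipose list summed to 71.6 to 325.3 CPM in controls and 57.7 to 734.1 CPM in oxalate, with a median change of 0.96 and 0 of 9 tested genes called. The urothelium list summed to 6.49 to 22.5 CPM in controls and 5.34 to 80.0 CPM in oxalate, with 0 of 10 called. The skeletal muscle list had 1 of 3 tested genes called, Tnni2, at a mean of 0.0954 CPM in controls and 0.521 CPM in oxalate. The adrenal list had 1 tested gene, Star, not called. Totals of the macrophage and monocyte list ran from 256.4 to 330.5 CPM in controls and from 504.2 to 1694.5 CPM in oxalate. Those of the T and NK cell list ran from 11.9 to 18.1 CPM in controls and from 21.1 to 73.6 CPM in oxalate. Alongside, the proximal tubule enzymes summed to 70677.8 to 83215.4 CPM in controls and 32877.7 to 70181.0 CPM in oxalate. The part of the immune totals in the enzyme totals, or the reverse, was not tested.

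The same contrast without alkali shares no library with the one described so far. The titles of all libraries on alkali carry the word late and those of the untreated libraries do not. In differences between the 2 contrasts, alkali and what late stands for therefore cannot be told apart. There 4067 genes (26.4%) were higher and 3563 (23.1%) lower in oxalate. Of the genes called higher on alkali 2969 were also called higher without it, 82.4% of the first set and 73.0% of the second. Of those called lower 2030 were shared, 77.1% and 57.0%, and 3 genes were called in opposite directions. The genes called higher on alkali had a median change of 0.935 on alkali and 1.08 without, and those called lower -0.398 and -0.428. List medians were 2.44 on alkali and 3.39 without for macrophage and monocyte genes, 1.36 and 2.07 for tubular injury, 1.51 and 3.01 for chemokines, 0.57 and 1.70 for immediate early genes and 1.19 and 1.59 for collagens and matrix proteins. They were -0.70 and -0.82 for proximal tubule transporters, -0.35 and -0.32 for oxidative phosphorylation, -0.04 and -0.51 for mitochondrially encoded genes and 0.60 and 0.62 for podocyte genes.

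**Figure D5:**
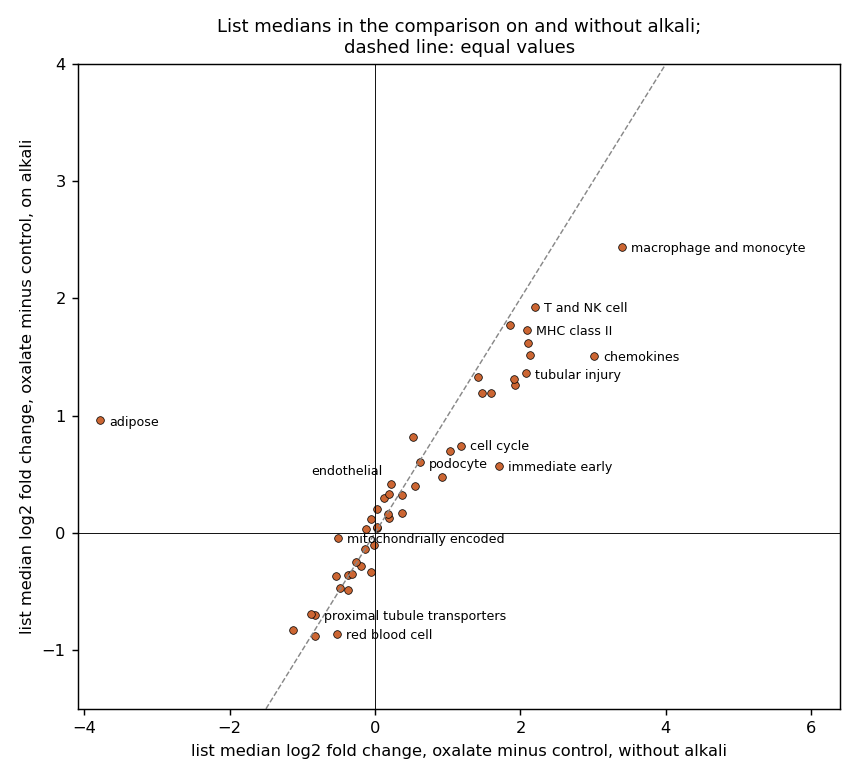
Median log2 fold change of oxalate over control in the gene lists with at least 5 tested members without alkali (x axis) against that on alkali (y axis); the dashed line marks equal values. The macrophage and monocyte list is at 3.39 and 2.44, chemokines at 3.01 and 1.51 and immediate early genes at 1.70 and 0.57, below the line, podocyte genes at 0.62 and 0.60 lie on it, and the adipose list, at -3.78 and 0.96, stands apart.

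Whether a gene's oxalate effect differed between the late libraries on alkali and the untreated ones was tested as an interaction. It is the log2 change on alkali minus that without. edgeR's quasi-likelihood test called 0 of 15430 genes (0.0%), 1429 (9.26%) had an unadjusted p under 0.05, 794 of them below 0 and 635 above, and DESeq2 called 26 of the same genes, 12 above 0 and 14 below. The smallest edgeR value was that of F2, prothrombin, at an adjusted p of 0.0907, with changes of 0.13 ± 0.26 on alkali and -2.39 ± 0.32 without. Eif1a, a translation initiation factor, and Ppp1r1b, a phosphatase inhibitor, led the DESeq2 calls at -0.58 ± 0.11 and 0.86 ± 0.17, with edgeR adjusted p of 0.124 and 0.181, and these 3 genes were picked after their values were seen. Slc4a1 was among the DESeq2 calls at 0.97 ± 0.24 (adjusted p = 0.0338): its change was 0.67 on alkali and -0.30 without, and edgeR's adjusted p was 0.363. None of the following differences passed edgeR's adjustment. Havcr1 changed by 2.12 on alkali and 4.33 ± 0.47 without, an unadjusted edgeR p of 0.00185, and Vcam1 by 2.55 and 3.9 (0.00143). Pck1 changed by -1.27 on alkali and -0.23 ± 0.26 without (0.00964), Slc38a3 by -0.45 and 0.44 (0.00584) and Aqp6 by 1.05 and 0.34 (0.00872). Genes with an unadjusted p under 0.05 numbered 16 of 26 in the tubular injury list, 14 of 30 for macrophage and monocyte genes, 13 of 24 for PPAR-alpha targets and 10 of 25 for immediate early genes, against 9.26% of all genes. They numbered 0 of 75 for oxidative phosphorylation. Counts of 0 of 16 for podocyte genes, 0 of 11 for MHC class II and 2 of 25 for T and NK cell genes come from short lists. These 3 counts cannot be told apart from the share of all genes. Among PPAR-alpha targets Cyp4a10, a fatty acid hydroxylase, was at 254.1, 570.2, 252.3, 285.5 and 431.9 CPM in controls and at 231.4, 188.0, 125.8, 224.2 and 234.9 CPM in oxalate on alkali. Its change was -0.84 ± 0.30 on alkali and 0.50 without (unadjusted p = 0.00504), and Acot1 and Acaa1b were at -0.46 and -0.70 on alkali and at 0.23 and 0.06 without. These 3 were picked after their values were seen.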

How the data were processed

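TruSeq stranded poly(A) libraries were made from 20 mouse samples, as the labels' protocols say. Each deposited file lists a whole-number count per gene, which the authors made with bcl2fastq 2.19, Trimmomatic, STAR 2.7.1 and featureCounts, per the submitters' processing notes. The notes name the build GRCh38.p5, a human one, although the identifiers are of mouse, and the build actually used is unknown. Symbols and coordinates were looked up in GENCODE M21 (GRCm38) for 25587 identifiers, and 113 had no match. The strand setting of the counting is not given in the sources used here, and 5596 tested genes share exon sequence with another gene, so their counts are uncertain. Named genes among them include Egf, Umod, Slc34a1, Slc5a2, Fn1, Ltbp2, H2-DMa, H2-Oa, Hk3, Cldn19, Wnk4, Nphs1, Gk, Slc16a9, Mpc1, Pdha1, Cyp2d12, Hspe1, Hspd1, Edn1 and Fgf2.

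Genes were kept with filterByExpr at a minimum count of 10, which removed 10270 and left at least 99.93% of each library's counts. Libraries were scaled by TMM (trimmed mean of M-values), and all 20 libraries entered 1 fit of 4 group means in edgeR 4.0.16 (robust quasi-likelihood, R 4.3.3, limma 3.58.1), so both contrasts share an estimate of the spread (common biological coefficient of variation 0.2). P-values were adjusted by Benjamini-Hochberg over all genes tested, and a gene was called at an adjusted p under 0.05. The SE is the log2 fold change over the square root of F. Groups came from titles and treatment labels. Library totals of 25547840 to 39550689 make counting error small for all but the scarcest genes, and each test weighs a change against variation among libraries. The code was tested on simulated counts. Alternatives were DESeq2 1.42.0, RLE and total-count scaling, no count filter, the 10 libraries on alkali alone, each library left out in turn, and the libraries with Adipoq above 1 CPM left out.

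The text names the 10 largest increases and 10 largest decreases among called genes (average log2 CPM of at least 1, no overlap of the libraries, no predicted gene), a panel of 28 genes, and up to 4 members per list with the smallest p. Others are said to have been chosen after their values were seen. A few genes picked by this rule are not reported here. The members, lists, panel and rules were chosen with earlier results of these data known. Lists are described by counts and medians, with no test of a list. Promoters are those of RefSeq (GRCm38.p6).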

Additional observations from a re-analysis of the deposited data

Results flagged for a closer look

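Dixon's test on the groups of 5 libraries on alkali compared the gap of an extreme library with the range of its group. It singled out 11 of 124 group values examined, at a critical value of 0.71, and chance alone picks about 1 in 20. Control library 4 was the extreme one in 6 of them, with Lyz1 at 0.879 CPM (other controls 0.0313 to 0.218), Kcnt1 at 27.6 CPM (12.4 to 16.1), Slc5a2 at 578.1 CPM (482.2 to 508.3), C3 at 37.5 CPM (11.3 to 18.4), Ren1 at 97.5 CPM (73.0 to 79.1) and the interferon response list at a mean log2 CPM of 3.22 (2.68 to 2.82). This library also held 18 CPM of Adipoq. Oxalate library 2 was the extreme one in 3, each on the side of the controls: Ceacam2 at 14.3 CPM (other oxalate libraries 3.63 to 6.49), Aqp1 at 873.3 CPM (488.6 to 547.6) and the T and NK cell list at -0.46 (0.74 to 1.20). Oxalate library 33 was the extreme one for Cd79a, at 1.54 CPM (0.310 to 0.516), and for the adipose list, at 5.56 (-0.60 to -0.19).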

How the results depend on the processing

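Of 196 named genes that were called, 43 lost the call under at least 1 alternative and 13 with a single library left out, and none changed sign. With total-count scaling 5645 genes were higher and 953 lower, and without the libraries carrying Adipoq above 1 CPM 2263 and 956, with 3082 of 6234 calls kept. Leaving out 1 library gave 2842 to 4293 higher and 1540 to 3634 lower genes, the lowest counts without oxalate libraries 33 and 8 and the highest without oxalate library 2, with 1586 lower without oxalate library 33. The interaction gave 0 calls in the main analysis. It gave 12 above 0 and 14 below with DESeq2, 1 above without the libraries carrying Adipoq, and 0 to 2 above and 0 to 1 below with 1 library left out (2 above and 1 below without control library 4, 1 above without untreated oxalate library 3). Total-count scaling moved small called changes by over 1.5 times without turning them, such as Cldn10 to -0.24, Stk39 to 0.62, Nr3c2 to 0.50, Sdhd to -0.22 and Pdha1 to -0.27, and without the libraries carrying Adipoq Eda2r was at 0.98 and Plk2 at 0.57. Genes that changed sign were all uncalled. With total-count scaling Kl was at 0, Umod at 0.15, Slc5a2 at 0.09, Ppargc1a at 0.08 and mt-Nd5 at 0.09. Without the libraries carrying Adipoq S100a9 was at -0.53, Star at -0.04, Trp63 at -0.02, Actn3 at -0.02 and Mylpf at -0.04. With 1 library left out Umod ran from -0.12 to 0.01, S100a9 from -0.01 to 0.96, mt-Nd5 from -0.25 to 0.01, Fabp4 from -0.09 to 1.28, Plin1 from -6.95 to 3.45, Retn from -4.72 to 3.47, Upk1b from -0.10 to 1.64, Upk1a from -0.03 to 1.06, Krt5 from -0.32 to 1.83, Actn3 from -0.08 to 0.22 and Mylpf from -0.06 to 0.13. The median of growth factors and receptors, -0.10, was 0.11 with total-count scaling, that of the circadian list 0.07 and that of the mitochondrially encoded list 0.18. The causes were not tested. No paired analysis was possible because the groups share no replicate number.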
